A study of Homo sapiens with 4 samples.

Results

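The alpha-arrestin family was followed in BT474, an established human breast cancer cell line with estrogen receptor and amplified HER2. Its members were TXNIP, ARRDC1, ARRDC2, ARRDC3 and ARRDC4, picked by gene symbol, 5 genes of the 33538 in the count matrix. Cells had received DMSO (the vehicle), fulvestrant at 100 nM (an estrogen receptor antagonist that leads to the receptor's degradation), neratinib at 200 nM (an irreversible HER2 and EGFR family kinase inhibitor) or both drugs at those doses, also called the combination. Treatment lasted 4 h, and all groups shared the same line and growth medium. Each group was 1 droplet library of 3′ transcript ends, so no replicate error exists, no p-value is given, and the intervals below are 95% intervals that cover counting error only.

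Alpha-arrestins are adaptor proteins with an arrestin fold. They bring ubiquitin ligases of the NEDD4 family to membrane proteins, which are then internalised and sorted. TXNIP also binds thioredoxin and promotes the uptake of glucose transporters from the cell surface. TXNIP and ARRDC4 are textbook targets of MondoA, a glucose-sensing transcription factor that works with its partner MLX at carbohydrate response elements and E-boxes, and TXNIP and ARRDC3 have been described as FOXO-responsive genes.

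The promoter stretches of TXNIP and ARRDC4 are shown because they hold motifs tied to the factors named above. The letters come from RefSeq (GRCh38.p14), 5′ to 3′ on the gene's own strand. For TXNIP the stretch is chr1:145996620-145996719 on the minus strand, from 140 to 41 bases before the transcript start. Capitals mark a FOXO motif, GTAAACA, and a carbohydrate response element, here CACGNG repeated after a gap of 5 bases. For ARRDC4 it is chr15:97960453-97960552 on the plus strand, from 250 to 151 bases before the start, with an E-box, CACGTG, in capitals.
TXNIP: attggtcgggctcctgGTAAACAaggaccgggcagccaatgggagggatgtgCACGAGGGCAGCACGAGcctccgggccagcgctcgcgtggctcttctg
ARRDC4: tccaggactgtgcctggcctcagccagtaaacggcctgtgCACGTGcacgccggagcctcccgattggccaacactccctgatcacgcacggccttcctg

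All 5 members had at least 1 RefSeq promoter window, 8 windows in all, and both strands of the 250 bases before each start were searched. In the TXNIP window the FOXO motif lay 124 to 118 bases before the start and the carbohydrate response element 88 to 72 bases before it. The ARRDC4 E-box lay 210 to 205 bases before the start. A FOXO motif on the opposite strand lay 29 to 23 bases before one ARRDC3 start. That start lies inside the ARRDC3 gene, and the motif falls within an annotated ARRDC3 exon. The ARRDC3 window at the gene's 5′ end held no match. No match was found in the ARRDC1 and ARRDC2 windows. Of 35116 promoter windows of this length, 6.34% held the E-box, 2.98% the FOXO motif and 0.0456%, or 16 windows, the carbohydrate response element. The motif list was completed after the members' promoter sequences had been seen, so these shares are no test of the matches. A match describes letters and does not show that a factor was bound.

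The cells kept for analysis had at least 5000 UMIs (unique molecular identifiers, 1 per captured transcript end) and 500 genes. There were 4301, 3485, 3507 and 3876 of them with DMSO, fulvestrant, neratinib and both drugs, at median depths between 22007 and 23010 UMIs. The median mitochondrial share of UMIs was 16.2% and 16.7% without neratinib and 21.1% in both libraries with it, and this difference stands beside every neratinib ratio below. All 10 luminal HER2 markers were measured, with summed levels of 10236, 9764, 7696 and 6917 CPM (UMIs per 1000000 UMIs of the library) in the order above. Not every luminal marker fell with that sum: GRB7 was at 218 CPM with DMSO and 595 with neratinib. Fibroblast markers summed to between 10.2 and 12.4 CPM with COL1A2 and PDGFRB at 0. Nearly all of that sum was COL1A1, at 11.5, 12.4, 10.7 and 10.2 CPM in the 4 libraries. Immune markers summed to between 1.31 and 1.74 CPM with CD3D and CD3E at 0, endothelial markers to between 1.78 and 2.49 CPM, and basal markers to between 1.64 and 1.92 CPM. Barcodes shared between libraries numbered 2 to 6 per pair of libraries.

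TXNIP, ARRDC1 and ARRDC4 were lower in both libraries that received neratinib, while ARRDC3 was higher in both libraries that received fulvestrant than in their partners without it. ARRDC4 differed most, at 2.61-fold lower with neratinib than with DMSO. TXNIP and ARRDC1 differed by 1.31-fold and 1.36-fold in the same pair. ARRDC2 was near the lower limit of measurement in every library.

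TXNIP (ENSG00000265972, GRCh38 chromosome 1, 145992435 to 145996600, minus strand) stood at 135 CPM with DMSO (interval 132.7 to 137.2), 137 with fulvestrant (134.6 to 139.7), 103 with neratinib (100.6 to 105.0) and 104 with the combination (101.7 to 105.9). These values rest on 13828, 11471, 8529 and 9455 UMIs. The libraries thus fell into a higher pair without neratinib and a lower pair with it, and within each pair the intervals overlapped.

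ARRDC1 (ENSG00000197070, chromosome 9, 137605654 to 137615360, plus strand), an alpha-arrestin known for the budding of vesicles from the plasma membrane, was likewise split by neratinib. It stood at 127 CPM with DMSO, 127 with fulvestrant, 93.5 with neratinib and 90.8 with the combination. The 2 libraries with neratinib again lay below the 2 without it, with no overlap of intervals. ARRDC1 shares 29 bases at its end with the antisense gene ARRDC1-AS1, which stood between 2.86 and 3.62 CPM. The sources used here do not give whether counting used the strand.

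ARRDC4 (ENSG00000140450, chromosome 15, 97960698 to 97973838, plus strand), the member closest to TXNIP in regulation and linked to glucose uptake like it, was much less abundant in UMIs. Its levels were 7.26 CPM with DMSO (6.75 to 7.80), 6.89 with fulvestrant (6.34 to 7.47), 2.78 with neratinib (2.44 to 3.17) and 2.60 with the combination (2.28 to 2.95), from 744, 576, 231 and 237 UMIs. Both libraries with neratinib had less than every library without it.

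ARRDC3 (ENSG00000113369, chromosome 5, 91368724 to 91383359, minus strand), an adaptor known for the degradation of integrin beta 4 and beta-adrenergic receptors, was split by fulvestrant instead on the CPM scale. It stood at 9.88 CPM with DMSO (9.28 to 10.5), 10.9 with neratinib (10.2 to 11.6), 12.5 with fulvestrant (11.8 to 13.3) and 13.8 with both drugs (13.0 to 14.6). The 2 libraries with fulvestrant were the highest, and the intervals of neighbours in this order overlapped only between DMSO and neratinib and between fulvestrant and both drugs. ARRDC3 shares 3011 bases with ARRDC3-AS1, for which 21, 21, 6 and 10 UMIs were counted with DMSO, fulvestrant, neratinib and both drugs.

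ARRDC2 (ENSG00000105643, chromosome 19, 18001132 to 18014102, plus strand), a less studied member, had 1.35, 1.47, 1.29 and 1.15 CPM with DMSO, fulvestrant, neratinib and both drugs, from 138, 123, 107 and 105 UMIs. All 4 intervals overlapped, so no order could be read at this depth. ARRDC5, outside the member list, had 0, 1, 0 and 1 UMIs and is not described further. Levels of different genes are compared here only as captured UMIs, and are not read as differences in transcript number.

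**Figure D1:**
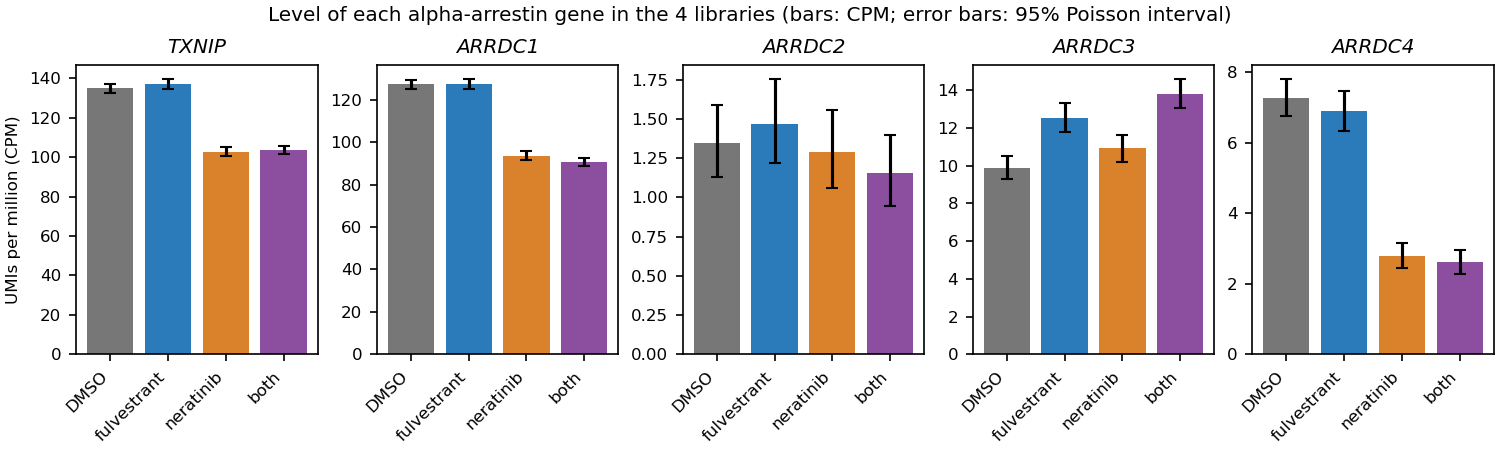
The level of each alpha-arrestin gene is drawn in CPM (vertical axis, own scale per gene) for the 4 libraries, with bars for the library's value and error bars for the 95% Poisson interval. TXNIP, ARRDC1 and ARRDC4 are lower in both libraries with neratinib, whereas ARRDC3 is highest at 13.8 CPM with both drugs.

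Libraries were then read in 5 pairs, so that each drug was seen in 2 pairs with no library in common. A gene was called higher or lower at a ratio of at least 5 to 4 in either direction, with an interval off 0, among 12136 genes with a mean of at least 1 CPM, a minimum that all 5 members reached. The median gene moved by -0.16 on the log2 scale for neratinib against DMSO and by -0.15 when both drugs were set against DMSO or against fulvestrant alone. It moved by 0.00 and 0.01 in the fulvestrant pairs.

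For neratinib against DMSO, 3 of 5 members were lower and none higher, where 33.3% of all tested genes were lower and 13.6% higher. The log2 ratio was -1.38 for ARRDC4 (-1.60 to -1.17), -0.45 for ARRDC1 (-0.49 to -0.40) and -0.39 for TXNIP (-0.43 to -0.35). Only 1.41% of tested genes had a lower ratio than ARRDC4, whereas 23.5% lay below ARRDC1 and 27.5% below TXNIP. The ARRDC4 difference, from 231 UMIs with neratinib, thus lay near the low end of the tested genes. The differences of TXNIP and ARRDC1 lay well inside the range of many other genes. ARRDC3 stood at 0.14 (0.01 to 0.27) and ARRDC2 at -0.06 (-0.44 to 0.31), neither of them called. With median-of-ratios scaling, which centres the median gene near 0, 20.6% of tested genes were lower and 21.2% higher. Neither TXNIP (-0.23) nor ARRDC1 (-0.28) was then called. ARRDC3 moved to 0.31 (0.18 to 0.44) with that scaling, just under the limit of a call. Its ratio for fulvestrant against DMSO was 0.34 with the same scaling, so its neratinib and fulvestrant ratios were then close. TXNIP also lost its call, at -0.31, when mitochondrial UMIs were left out of the total.

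The second neratinib pair, both drugs against fulvestrant alone, shares no library with the first. There too 3 of 5 members were lower and none higher, beside 32.4% of all tested genes lower and 13.8% higher. The log2 ratios were -1.40 for ARRDC4 (-1.63 to -1.18), -0.49 for ARRDC1 (-0.53 to -0.45) and -0.40 for TXNIP (-0.44 to -0.36). ARRDC3 was at 0.14 (0.02 to 0.26) and ARRDC2 at -0.35 (-0.74 to 0.04). Median-of-ratios scaling again ended the TXNIP call, at -0.25. It put ARRDC3 at 0.29 (0.17 to 0.41), which was not called.

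Fulvestrant against DMSO gave 1 of 5 members higher, ARRDC3, and none lower, where 1.23% of all tested genes were higher and 1.8% lower. ARRDC3 had a log2 ratio of 0.34 (0.21 to 0.47), a 1.27-fold difference just inside the limit of 5 to 4, and 98.6% of tested genes had a lower ratio. TXNIP at 0.02 (-0.01 to 0.06) and ARRDC1 at 0.00 (-0.04 to 0.04) had intervals that leave room for a difference of at most 0.06 either way. ARRDC4 at -0.08 (-0.24 to 0.08) and ARRDC2 at 0.13 (-0.24 to 0.49) were measured less tightly.

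In the second fulvestrant pair, both drugs against neratinib alone, ARRDC3 was again the only member called, with a log2 ratio of 0.34 (0.21 to 0.46). Here 1.57% of tested genes were higher and 2% lower. TXNIP was at 0.01 (-0.03 to 0.06), ARRDC1 at -0.04 (-0.09 to 0.00), ARRDC4 at -0.10 (-0.37 to 0.17) and ARRDC2 at -0.16 (-0.56 to 0.24).

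With both drugs against DMSO, 3 of 5 members were lower and 1 was higher, beside 33.3% of tested genes lower and 14.9% higher. ARRDC4 was at -1.48 (-1.70 to -1.27), or 2.79-fold lower, ARRDC1 at -0.49 (-0.53 to -0.45), TXNIP at -0.38 (-0.42 to -0.34) and ARRDC3 at 0.48 (0.36 to 0.60). ARRDC2 was at -0.22 (-0.60 to 0.15). This pair shares its libraries with the pairs above and adds no separate reading of either drug. The TXNIP call ended at -0.23 with median-of-ratios scaling and at -0.29 without mitochondrial UMIs in the total.

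The departure from additivity is the log2 level with both drugs minus the level that the single drugs add up to. It was -0.01 for TXNIP (-0.07 to 0.05), -0.04 for ARRDC1 (-0.10 to 0.01), 0.00 or just below it for ARRDC3 (-0.18 to 0.17), -0.02 for ARRDC4 (-0.33 to 0.28) and -0.29 for ARRDC2 (-0.81 to 0.23). Every interval held 0, and the median of all tested genes was 0.01. In 3 alternatives an interval did not hold 0: ARRDC1 was at -0.16 in S cells (-0.30 to -0.02) and at -0.07 without the 5% of cells with most UMIs (-0.13 to 0.00, the upper bound just below 0), and ARRDC4 was at -0.56 in G2M cells (-1.12 to 0.00, likewise).

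**Figure D2:**
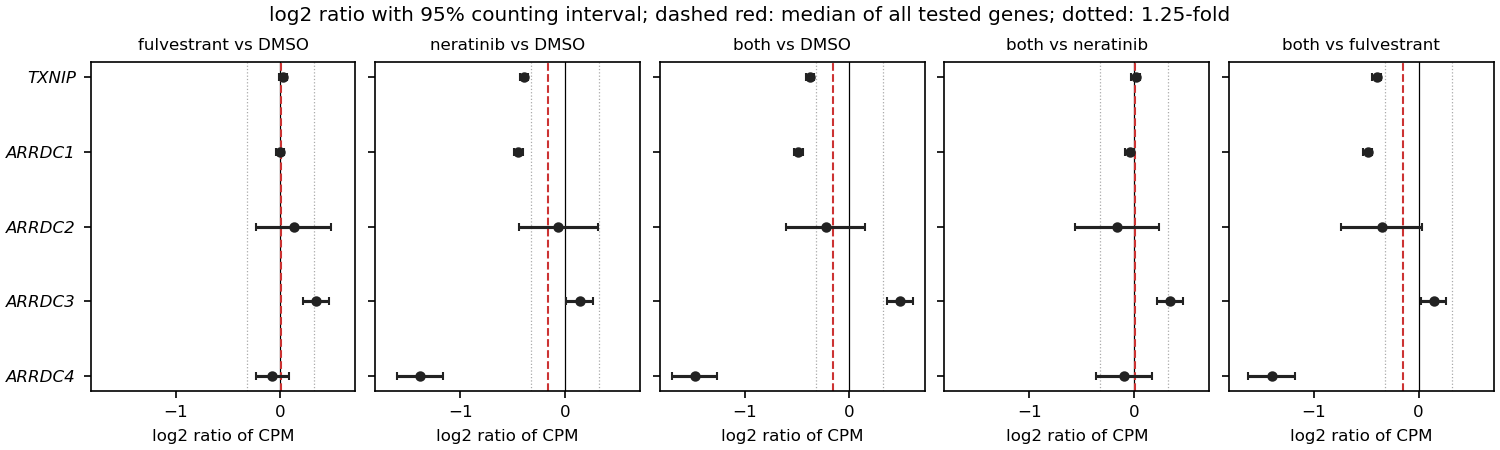
Points are log2 ratios of CPM (horizontal axis) for the 5 members in the 5 pairs, with 95% counting intervals, the median of all tested genes dashed and the limit of a call dotted. ARRDC4 lies between -1.48 and -1.38 in every pair that adds neratinib, and ARRDC3 lies at 0.34 in both pairs that add fulvestrant.

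At the level of single cells, depth was evened by thinning each cell to 10000 UMIs, which left out 191 to 254 cells per library and kept 4047, 3286, 3316 and 3671. TXNIP was then detected in 66.6% of cells with DMSO, 67.0% with fulvestrant, 57.8% with neratinib and 57.5% with the combination. Without thinning the shares were 84.4%, 84.3%, 78.2% and 77.6%. ARRDC1 was found in 69.4%, 69.0%, 58.0% and 56.5% of thinned cells. The shares thus moved the same way as the CPM for both genes.

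ARRDC4 was found in 7.19%, 6.82%, 2.86% and 2.59% of thinned cells, in the order DMSO, fulvestrant, neratinib and both drugs. ARRDC3 was found in 9.17%, 11.9%, 10.4% and 12.8%. Here the fulvestrant libraries had the higher shares, as they had the higher CPM. ARRDC2 was found in between 1.16% and 1.30% of cells. Free RNA was read from barcodes with 1 to 100 UMIs: 100 UMIs of it would carry 0.0105 TXNIP UMIs with DMSO and 0.0092 with neratinib. In that RNA ARRDC4 stood at 8.61, 7.51, 3.99 and 3.49 CPM, from 44, 34, 16 and 18 UMIs. ARRDC3 stood at 15.9, 21.2, 21.2 and 17.8 CPM there, above its level in cells in every library, from 81, 96, 85 and 92 UMIs. ARRDC2 stood at 1.76, 1.33, 2.49 and 2.52 CPM, from 9, 6, 10 and 13 UMIs. These counts are small and carry no interval here, so no order of libraries is read from them. BT474 is the only cell type here, so no type that lacks these genes was at hand for comparison.

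TXNIP was spread unevenly over cells. Its Fano factor, the variance of its thinned UMIs divided by their mean, was 1.90 with DMSO, 1.91 with fulvestrant, 1.68 with neratinib and 1.65 with the combination, where the median of genes with a like mean was 1.10 to 1.11. Only 14 of 438, 14 of 427, 15 of 493 and 17 of 493 genes of like mean had a higher one. ARRDC1, with nearly the same mean, had Fano factors between 1.10 and 1.18. ARRDC4 had 1.13, 1.17, 1.01 and 1.02, above 96.1% and 97.8% of genes of like mean with DMSO and fulvestrant and above 48.5% and 57.6% in the libraries with neratinib. ARRDC3 was above 93.7%, 91.5%, 67.7% and 79.1% of genes of like mean. ARRDC2 was above 70.2%, 75.2%, 74.0% and 93.1%. TXNIP thus stood high for its mean in all 4 libraries. ARRDC3 and ARRDC4 stood high in the 2 without neratinib, whereas ARRDC2 stood highest with both drugs. The ARRDC4 mean was 0.077 and 0.076 thinned UMIs without neratinib and 0.029 and 0.026 with it. The part of this lower mean in its Fano factors was not tested.

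The uneven part was a tail of cells with many TXNIP UMIs. Cells with at least 5 thinned TXNIP UMIs made up 3.73% of cells with DMSO (3.17% to 4.36%), 4.26% with fulvestrant (3.60% to 5.01%), 2.26% with neratinib (1.78% to 2.83%) and 2.51% with the combination (2.02% to 3.06%). They held 17.1%, 19.4%, 13.0% and 13.9% of all TXNIP UMIs. The highest count in a thinned cell was 25, 24, 16 and 13 for TXNIP, against 8, 8, 6 and 8 for ARRDC1. The tail was present in all 4 libraries and smaller in both with neratinib.

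**Figure D3:**
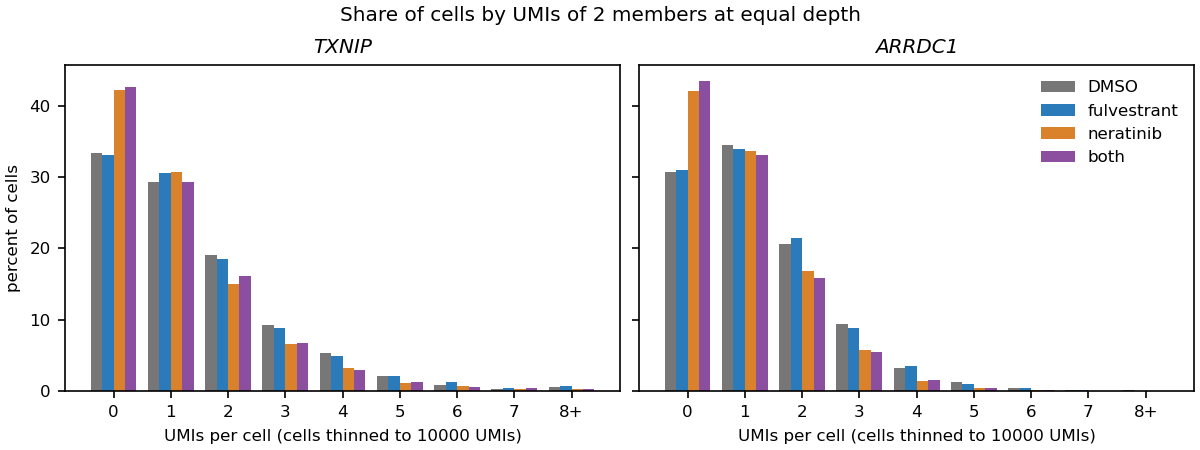
Bars give the percent of cells (vertical axis) with each number of UMIs (horizontal axis) of TXNIP and of ARRDC1 in cells thinned to 10000 UMIs, by library. At 0 UMIs the neratinib libraries have more cells, and TXNIP reaches further to the right than ARRDC1 in every library.

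Cells were next set in 4 ranges of thinned TXNIP count, namely 0, 1 to 2, 3 to 4, and 5 and over. This grouping, and the Fano factor, were chosen after the data were seen, and the ranges are cuts of a continuous count: 212, 161, 106 and 108 cells lay at 4 UMIs and 84, 67, 35 and 46 at 5. ARRDC4 was higher in cells with more TXNIP in all 4 libraries. With DMSO its level was 5.55, 7.87, 9.35 and 19.2 CPM over the 4 ranges, and with fulvestrant 5.99, 7.33, 9.53 and 16.4 CPM. With neratinib it was 2.43, 2.90, 3.69 and 9.33 CPM, and with both drugs 1.98, 2.34, 4.25 and 13.0 CPM. The lowest and the highest range did not overlap in any library: the log2 ratio between them was 1.79 (1.12 to 2.43), 1.46 (0.70 to 2.16), 1.94 (0.52 to 3.14) and 2.72 (1.62 to 3.72). Those last values rest on 29, 23, 7 and 12 ARRDC4 UMIs in the highest range.

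ARRDC3 went the same way. It stood at 8.36, 9.36, 12.6 and 21.9 CPM over the ranges with DMSO and at 11.5, 11.4, 19.7 and 24.3 CPM with fulvestrant. With neratinib it stood at 10.5, 10.5, 12.0 and 29.3 CPM, and with both drugs at 12.6, 13.8, 16.7 and 28.3 CPM. The log2 ratio of the highest to the lowest range was 1.39 (0.78 to 1.96), 1.08 (0.48 to 1.63), 1.48 (0.76 to 2.13) and 1.16 (0.51 to 1.76).

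ARRDC1 did not follow TXNIP across cells. Its level in the lowest and the highest range was 131.6 and 123.2 CPM with DMSO and 127.0 and 117.9 with fulvestrant. It was 90.3 and 76.0 CPM with neratinib and 86.4 and 94.6 with both drugs, and all 4 intervals of the ratio held 0. Cells with at least 5 TXNIP UMIs had median depths before thinning of 20350, 21255, 21090 and 20195 UMIs, against 23192, 23643, 23052 and 22534 in cells with none. Their G1 shares were 63.6%, 60.7%, 58.7% and 63.0%, against 55.0%, 55.8%, 54.7% and 57.2%. The part of depth and phase in these values was not tested.

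**Figure D4:**
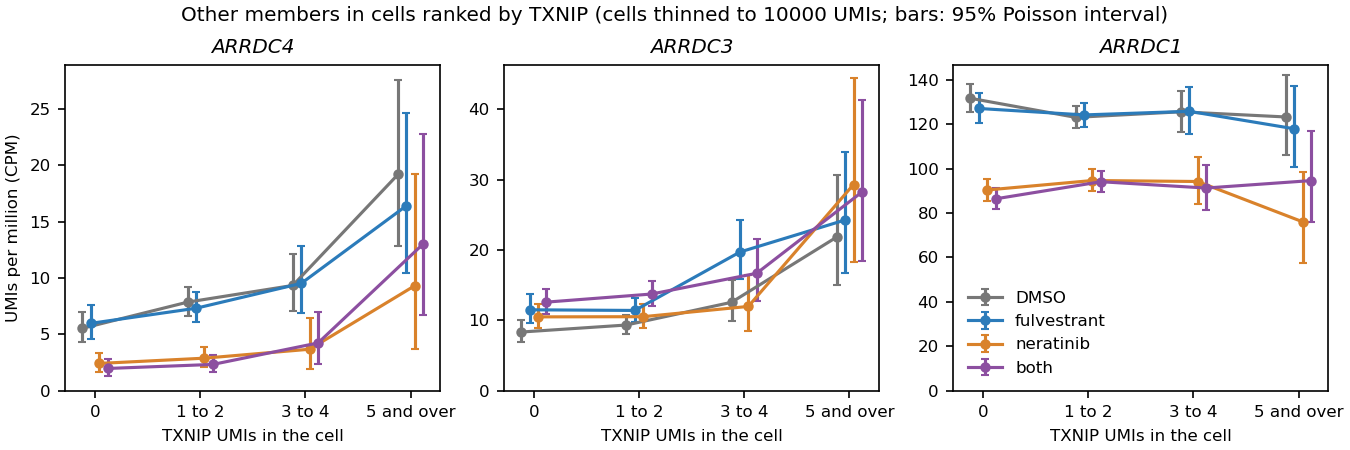
The level of ARRDC4, ARRDC3 and ARRDC1 in CPM (vertical axes) is drawn against the TXNIP UMIs of the cell (horizontal axis, 4 ranges) in each library, with 95% Poisson intervals. ARRDC4 reaches 19.2 CPM in the DMSO cells with most TXNIP from 5.55 in those with none, while ARRDC1 stays level.

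Over single cells the correlations were weak. Pearson's r between TXNIP and ARRDC4 was 0.131, 0.111, 0.098 and 0.117 in the 4 libraries, and between TXNIP and ARRDC3 it was 0.103, 0.092, 0.080 and 0.081. Between TXNIP and ARRDC1 it was -0.04, -0.02, 0.01 and 0.04. These are descriptions over cells that share a library, with 4301, 3485, 3507 and 3876 cells. Among 6701 genes detected in at least 20% of cells of every library, the highest mean r with TXNIP over the libraries belonged to H3F3B (0.15), ZFAS1 (0.14), NCL (0.14), DDIT3 (0.14) and ENO1 (0.14), and the lowest to MT-CO3 (-0.18), a mitochondrial transcript. TXNIP and the mitochondrial share of the cell had Pearson's r of -0.15, -0.18, -0.11 and -0.15 and Spearman's rho of -0.09, -0.11, 0.00 (just below it) and -0.07.

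ARRDC4 was the only member whose level differed by at least 1 on the log2 scale between its highest and lowest library, with a range of 1.48. Its pattern over the 4 libraries was nearest to those of IRX4, CHD7, PACSIN3, LRRC59 and DDX5 among 4945 genes with a mean of at least 20 CPM, at root mean square distances of 0.037 to 0.048 on the log2 scale. IRX4, a homeobox factor, had a log2 ratio of -1.33 for neratinib against DMSO. CHD7, a chromatin remodeler, was at -1.45, and DDX5, an RNA helicase, at -1.31. With 4 libraries such likeness is a description only.

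Within scored cell cycle phases, each called by marker lists on depth-thinned cells, TXNIP was compared again. In G1 it was 139.5, 139.7, 106.3 and 107.3 CPM with DMSO, fulvestrant, neratinib and both drugs. In S it was 127.6, 129.5, 104.7 and 100.3 CPM, and in G2M 132.9, 138.7, 97.7 and 100.5 CPM. Both libraries with neratinib were below both without it in each phase. Scored S cells were 17.0% and 19.5% of cells without neratinib and 12.7% and 14.1% with it, and 9.88% to 13.1% of cells lay close to a phase limit.

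ARRDC4 was lower in G2M than in G1 cells in 3 libraries, with log2 ratios of -0.70 with DMSO (-0.95 to -0.45), -0.62 with fulvestrant (-0.91 to -0.34) and -0.71 with both drugs (-1.15 to -0.27). With neratinib alone it was -0.10 (-0.52 to 0.31). The neratinib difference itself was present in each phase: ARRDC4 was at -1.54 against DMSO in G1 (-1.85 to -1.24), -1.80 in S (-2.47 to -1.18) and -0.95 in G2M (-1.33 to -0.58). ARRDC1 went the other way over phases, and was higher in G2M than in G1 by 0.15, 0.14, 0.23 and 0.29 in the 4 libraries.

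ARRDC3 was higher with fulvestrant than with DMSO by 0.38 in G1 (0.20 to 0.57) and 0.45 in S (0.17 to 0.74), but in G2M the value was 0.20 (-0.02 to 0.42) and the call was lost, where 1.66% of tested genes were called higher. In G2M cells ARRDC3 stood at 9.90, 11.4, 8.91 and 11.9 CPM. The log2 ratio of G2M to G1 was -0.22, -0.42 and -0.31 with fulvestrant, neratinib and both drugs, each interval below 0, and -0.03 with DMSO (-0.24 to 0.17). Whether phases differ in their drug ratios was not tested.

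Because neratinib cells had more mitochondrial UMIs, members were also compared within ranges of that share. Between 15 and 20%, where 1188 to 2270 cells per library lay, TXNIP was 130.9 CPM with DMSO, 131.9 with fulvestrant, 101.8 with neratinib and 106.3 with the combination. ARRDC1 was 130.4, 129.8, 93.3 and 90.1 CPM there, and ARRDC4 7.16, 6.37, 2.84 and 2.82 CPM. In this range the libraries with neratinib lay below those without it for all 3 genes, and the cells could still differ in mitochondrial share within it. From 20 to 25% the log2 ratio of neratinib to DMSO was -0.44 for TXNIP (-0.53 to -0.35), -0.37 for ARRDC1 (-0.47 to -0.28) and -1.47 for ARRDC4 (-1.90 to -1.02).

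ARRDC3 between 15 and 20% was 9.42, 12.2, 10.5 and 13.0 CPM, a log2 ratio of 0.38 for fulvestrant against DMSO (0.21 to 0.55) and 0.46 for both drugs against DMSO (0.27 to 0.65). From 20 to 25% these ratios were 0.16 (-0.21 to 0.52) and 0.08 (-0.21 to 0.38), and neither was called. That range held 460 DMSO, 430 fulvestrant and 1744 combination cells. Under 15% ARRDC3 was at 0.29 (0.06 to 0.51) and 0.83 (0.42 to 1.22), and at 25% and over at 0.66 (-0.07 to 1.41) and 0.58 (0.01 to 1.20). So the ratio of ARRDC3 for fulvestrant against DMSO was called in 1 of the 4 ranges, 15 to 20%. At 25% and over it was large enough for a call, but its interval held 0. Its intervals were wide in the ranges with few cells.

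The range of 25% and over was an exception for TXNIP. Here DMSO cells had 89.5 CPM and neratinib cells 106, a log2 ratio of 0.24 (0.03 to 0.45), opposite in sign to the other ranges. It rests on 170 DMSO and 567 neratinib cells. ARRDC4 in the same cells was still lower with neratinib, at -1.96 (-2.89 to -1.02), and ARRDC1 was at -0.12 (-0.32 to 0.10). Under 15%, with 128 neratinib cells, TXNIP was at -0.66 (-0.85 to -0.48) and ARRDC4 at -0.75 (-1.72 to 0.08).

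**Figure D5:**
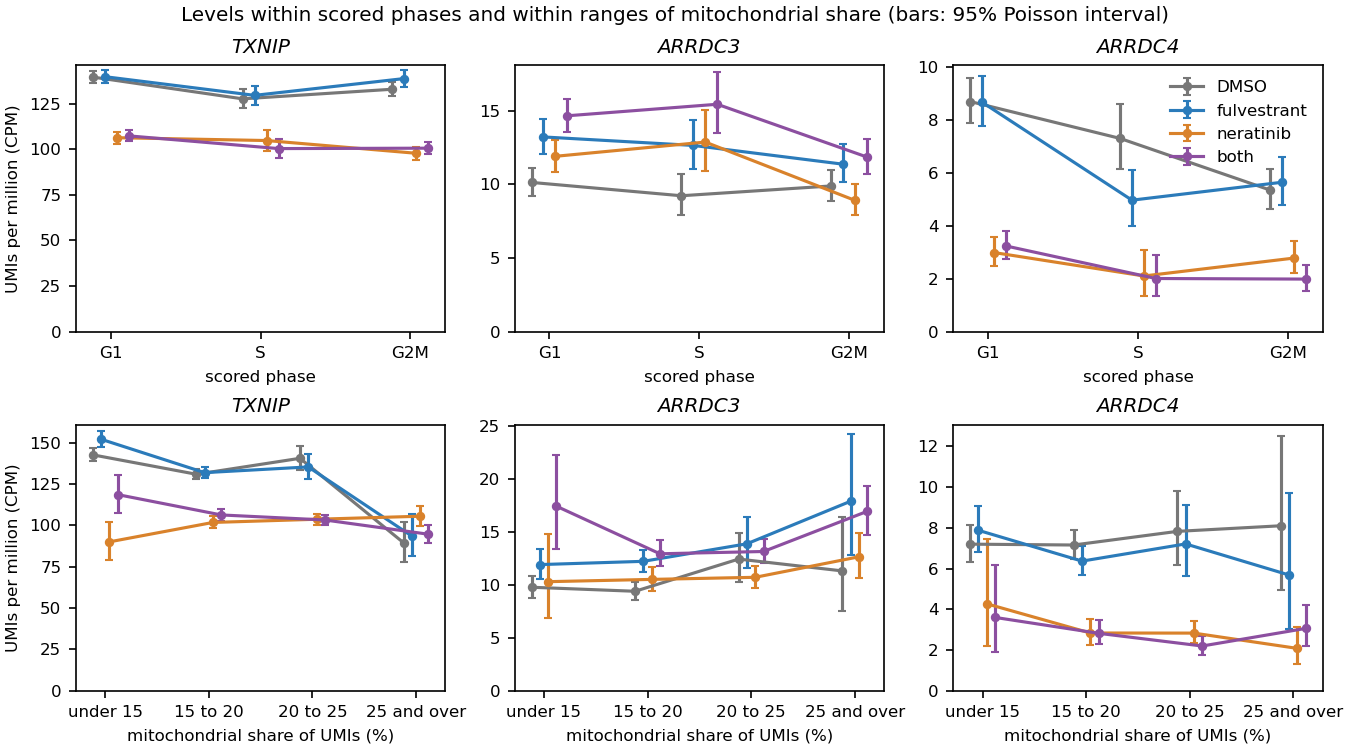
Levels of TXNIP, ARRDC3 and ARRDC4 in CPM (vertical axes) are drawn by scored phase (upper row) and by the mitochondrial share of UMIs (lower row) for each library, with 95% Poisson intervals. The neratinib libraries lie below the others for TXNIP in each phase and in each mitochondrial range except 25% and over.

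Other genes of the same pathways were read from lists written from general knowledge, with earlier results of these data known. Among glucose-responsive targets of MondoA and its relative ChREBP, 12 of 15 were measured, and with neratinib against DMSO 9 were lower and 1 higher (75.0% and 8.33% of those measured), beside 33.3% and 13.6% of all tested genes. Their median was -0.82 beside -0.16 for all tested genes. These all-gene values hold for each count below with neratinib against DMSO. RGS16, a regulator of G-protein signalling, was at -3.02 (-3.52 to -2.56), BHLHE40, a clock-linked repressor, at -2.19 (-2.79 to -1.63) and PFKFB4, an enzyme that sets glycolytic rate, at -1.24 (-1.56 to -0.93). With neratinib RGS16 and BHLHE40 stood at only 0.49 and 0.37 CPM, from 41 and 31 UMIs. The list's one higher gene was ARNTL at 0.48 (0.15 to 0.81). For both drugs against fulvestrant 9 were again lower and 1 higher, at a median of -0.80. Among all tested genes 32.4% were lower and 13.8% higher in that pair, at a median of -0.15. Fulvestrant against DMSO gave 1 lower, RGS16 at -0.49 (-0.72 to -0.25), or 8.33% of those measured. Among all tested genes 1.8% were lower and 1.23% higher there, and those shares hold for each fulvestrant count below. For both drugs against neratinib RGS16 was at -0.07 (-0.72 to 0.59), from 43 and 41 UMIs, and was not called.

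Transcription factors of the MondoA, MLX and MXD group went in different directions. Of its 10 genes, all measured, 4 were higher and 3 lower with neratinib, with a median of 0.03. Among all genes 13.6% were higher and 33.3% lower. MLXIP, which encodes MondoA, was 30.1 CPM with DMSO and 38.8 with neratinib, a log2 ratio of 0.36 (0.29 to 0.44), and is named here after its value was seen. MLX, its partner, was at -0.77 (-0.85 to -0.68). MLXIPL, which encodes ChREBP, was also called lower with neratinib against DMSO, and again for both drugs against fulvestrant. MLXIPL too is named after its call was seen. MXI1 and MXD3, which pair with MAX and oppose MYC, were at 1.19 (1.07 to 1.31) and 1.11 (1.04 to 1.18). None of the 10 was called with fulvestrant.

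Of the arrestin-fold genes outside the family, 5 of 8 were measured and 3 were lower with neratinib, with a median of -0.33, where 33.3% of all tested genes were lower. ARRB1 and ARRB2, the beta-arrestins that silence G-protein-coupled receptors, were at -0.88 (-1.02 to -0.74) and -0.33 (-0.45 to -0.20). VPS26C, a subunit of an endosomal sorting complex, was at -0.34 (-0.46 to -0.21). None was called with fulvestrant.

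Among the NEDD4 family ligases and their adaptors, the enzymes that alpha-arrestins recruit, 9 of 11 were measured and 1 was lower with neratinib: SMURF1 at -0.61 (-0.80 to -0.43). That is 11.1% lower, under the 33.3% of all tested genes. In the ESCRT machinery, which sorts ubiquitinated cargo and serves ARRDC1-driven budding, all 28 genes were measured, with 3 higher and 5 lower and a median of -0.08. The shares were 10.7% higher and 17.9% lower, beside 13.6% and 33.3% of all tested genes. CHMP6 was at -1.75 (-1.95 to -1.56), VPS4A at -0.55 (-0.62 to -0.47) and CHMP4C at 0.82 (0.76 to 0.89). Neither list had a call with fulvestrant.

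Reported cargo of arrestin-domain proteins had 10 of 15 genes measured, with 2 higher and 5 lower with neratinib and a median of -0.24, beside 13.6% higher and 33.3% lower among all genes. The receptors INSR and IGF1R were higher, at 1.38 and 1.02, and NOTCH1 was lower at -0.78 (-0.97 to -0.59). With fulvestrant IGF1R was the one gene called, at -0.60 (-0.70 to -0.51). Glucose transporters had 6 of 15 measured, with 3 higher and 2 lower with neratinib, too few to set against these shares. SLC2A8 was at -0.64 (-0.72 to -0.55), SLC2A10 at 0.49 (0.42 to 0.55) and SLC2A6 at 0.53 (0.26 to 0.80). SLC2A6 was also higher with fulvestrant against DMSO, at 0.37 (0.09 to 0.64). For both drugs against neratinib it was at 0.11 (-0.14 to 0.36) and was not called.

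The thioredoxin and peroxiredoxin system, which TXNIP meets through thioredoxin, had 22 of 28 genes measured, with 6 lower and none higher with neratinib and a median of -0.10. The lower share of 27.3% was near the 33.3% of all tested genes. MAP3K5, a stress kinase held by thioredoxin, was at -1.16 (-1.51 to -0.82), MSRB1 at -0.72 (-0.84 to -0.61) and GLRX3 at -0.48 (-0.54 to -0.41). No gene of this system was called with fulvestrant.

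FOXO factors and AKT regulators had 23 of 26 measured, with 8 higher and 9 lower with neratinib and a median of -0.20. The shares were 34.8% higher and 39.1% lower, beside 13.6% and 33.3% of all tested genes. FOXO1 was at 0.89 (0.52 to 1.28), FOXO6 and PHLPP2, a phosphatase of AKT, were lower by a log2 ratio of -1.24 and -0.95. With fulvestrant 4 were lower and none higher, among them INPP4B at -0.57 and SGK3 at -0.44. That is 17.4% lower, beside 1.8% lower and 1.23% higher among all tested genes. AMPK subunits and energy sensors had 14 of 15 measured, with 3 higher and 1 lower with neratinib, or 21.4% and 7.14%, beside the same 13.6% and 33.3%. SESN3 was at 1.16, PPARGC1A at 0.75 and PRKAA2, a catalytic subunit, at -0.58.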

How the data were processed

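One merged matrix of 4 droplet libraries was analysed. The authors deposited whole-number UMI counts made with Cell Ranger 3.1.0, and the notes name hg19, per the submitters' processing notes. No value was taken by coordinate. Gene positions come from a GENCODE annotation of GRCh38. A barcode's final number gave its library, through the number at the head of the sample titles. Barcodes with at least 5000 UMIs and 500 genes were kept without a mitochondrial ceiling. No doublet caller was run and doublets were kept.

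Counts were summed per library and divided by all UMIs to give CPM. Ratios carry 95% intervals of the exact conditional binomial for a pair of Poisson counts, shares carry Clopper-Pearson intervals, and single levels carry exact Poisson intervals. Additivity intervals sum Poisson variances. Thinning drew UMIs without replacement. Phases were scored with scanpy 1.11.5 on counts thinned to 5000 UMIs, and correlations used log2(UMIs per 10000 + 1). The ratio script was checked on simulated counts.

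The members and lists were chosen with earlier results of these data known, and the motif list was completed after the promoter sequences had been seen. Named genes are all members; in each list up to 3 genes with the greatest absolute ratio for neratinib against DMSO, and 2 for fulvestrant, among those called there with the same sign in the pair that shares no library; and the 5 nearest genes by likeness. Alternatives were a 20% mitochondrial ceiling, a minimum of 10000 UMIs, leaving out the 5% of cells with most UMIs, 2 other scalings, means over cells, single phases and calls at 1.5-fold.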

Additional observations from a re-analysis of the deposited data

How the results depend on the processing

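Across 25 ratios of a member in a pair and 9 alternatives each, 179 of 225 values stayed inside the original interval, 46 left it, none that was called turned its sign, and 15 calls were gained or lost. ARRDC4 was called lower under all 9 alternatives with neratinib against DMSO, at -1.80 to -0.95. The TXNIP ratio ranged from -0.44 to -0.23 there and lost its call with median-of-ratios scaling (-0.23), without mitochondrial UMIs in the total (-0.31) and in S cells (-0.28). ARRDC1 ranged from -0.52 to -0.26. Median-of-ratios scaling left 1 member lower with neratinib against DMSO (ARRDC4). That scaling moved the background for this pair to 21.2% higher and 20.6% lower, for both drugs against DMSO to 22.9% and 21.9%, and for both drugs against fulvestrant to 21.6% and 20.8%.

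At 1.5-fold, 1 member was lower for neratinib against DMSO, both drugs against DMSO and both drugs against fulvestrant, where 15.1%, 15.7% and 14.6% of all tested genes were lower. At that fold 0 were higher for fulvestrant against DMSO, both drugs against DMSO and both drugs against neratinib, where 0.0989%, 7.94% and 0.0577% of genes were higher. In G1 cells 0 were higher for both drugs against neratinib (1.99% of genes); ARRDC3 was at 0.30 (0.13 to 0.47) there, just under the limit of a call. In S cells 1 was lower with fulvestrant (ARRDC4, -0.56; 2.6% of genes), 1 higher (ARRDC3, 0.48; 10.9%) and 1 lower (ARRDC4; 33.6%) with neratinib, and 0 higher for both drugs against neratinib (ARRDC3, 0.26; 2.69%). In G2M cells 0 were higher with fulvestrant (1.66%) or with both drugs against DMSO (ARRDC3, 0.26; 12.1%), and 1 was lower for both drugs against neratinib (ARRDC4, -0.49; 2.42%). The cause of these shifts was not tested. No paired analysis was possible because each group holds 1 library. Counting depth limits ARRDC2, with 105 to 138 UMIs per library, and variation between cultures was not measured.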
